A study of Drosophila melanogaster with 3 samples.

Results

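At 543 of 10264 reproducible binding summits (5.29%), the Drosophila DNA-binding protein Phol was found at a downstream alternative promoter, that is, at an annotated start of a protein-coding gene other than its outermost one. A summit was counted if it lay within 500 bp of a start that is 1 kb or more downstream of the same gene's 5′-most start, and if no protein-coding gene had its 5′-most start within 500 bp. The 543 summits belong to 447 genes. By comparison, 4180 summits lay within 500 bp of a 5′-most start, 2479 of them near the 5′-most start of 1 gene only. The word promoter rests here on the annotation alone, since transcription from these starts was not measured.

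The data come from chromatin immunoprecipitation and sequencing of whole Drosophila melanogaster embryos, mixed in sex and 0 to 16 hours old, from a stable transgenic line with green fluorescent protein (GFP) fused to the C terminus of Phol. The sample description names an antibody against GFP, while the antibody field names phol itself. There is a single group of 3 biological replicates and no comparison group, and whole embryos pool all cell types and stages, so a peak can come from any of their cells. The authors deposited a list of 30000 peaks per replicate, a list from the pooled replicates, and the 10264 reproducible peaks used here.

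Phol (pleiohomeotic-like) and its paralog Pho are zinc-finger proteins that bind GCCAT-containing sites and recruit Polycomb complexes, which keep developmental genes silent. Many fly genes have several promoters, and transcripts from different starts can differ in their untranslated leader, in the beginning of the protein, and in when and where they are made. At the promoters of broadly expressed fly genes, other sequences recur, such as the DNA replication-related element (DRE) bound by Dref and Motif 1 bound by M1BP, while GAGA factor binds GA-rich stretches at many regulated promoters.

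A few summit sequences show what tagged Phol was found on. Each runs from 50 bp before to 50 bp after a summit, read from the release 6 genome (dm6) on the strand of the gene and printed 5′ to 3′, and all 7 lie in an intron of the gene. The first 5 hold the extended Pho and Phol word GCCATNTT, where N is any base, and are among the strongest such summits outside annotated UTRs. They are not a strict ranking, since the HmgD summit (rank 2672), also in an intron, ranks above that of Rtnl1 (2692) and is not printed. The capitals mark that word as it reads on the gene's strand, so in Lmpt it appears in reverse complement.
fs(1)h, chrX:8058527-8058627, minus strand: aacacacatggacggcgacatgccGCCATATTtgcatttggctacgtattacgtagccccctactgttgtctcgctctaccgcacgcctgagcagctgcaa
Xrp1, chr3R:18918686-18918786, plus strand: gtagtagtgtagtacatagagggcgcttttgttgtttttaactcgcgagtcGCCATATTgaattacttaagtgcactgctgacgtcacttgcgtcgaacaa
Lmpt, chr3L:16890729-16890829, plus strand: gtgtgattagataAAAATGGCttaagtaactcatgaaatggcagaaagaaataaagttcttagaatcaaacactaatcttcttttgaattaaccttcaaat
eRF3, chr2L:12436388-12436488, plus strand: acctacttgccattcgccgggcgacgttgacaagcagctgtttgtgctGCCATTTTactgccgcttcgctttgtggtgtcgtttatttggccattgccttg
Rtnl1, chr2L:4999779-4999879, minus strand: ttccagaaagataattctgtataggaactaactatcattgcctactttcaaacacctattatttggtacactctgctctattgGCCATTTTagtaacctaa
The other 2, chosen within the same limits, hold the words that are scarce at these summits. In su(w[a]) the capitals mark the DRE word TATCGATA, and in lute the Motif 1 word GGTCACAC in reverse complement.
su(w[a]), chrX:1033201-1033301, plus strand: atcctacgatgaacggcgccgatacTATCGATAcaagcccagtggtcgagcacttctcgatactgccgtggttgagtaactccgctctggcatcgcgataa
lute, chr3R:17385781-17385881, plus strand: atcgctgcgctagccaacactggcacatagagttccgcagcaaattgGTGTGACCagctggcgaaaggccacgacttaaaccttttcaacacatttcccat

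The summit windows printed above are exceptions in their word content, and most of the 543 windows hold none of these words. GCCATNTT, searched on both strands, was found in 25 of the 543 windows (4.60%), against 7.54% of the 4180 windows at 5′-most starts. The odds ratio was 0.592 (95% interval 0.390 to 0.899), with a p of 0.0394 after adjustment over 9 words in a two-sided exact test by Fisher's method. That call did not hold under several other settings, including windows that reach 100 bp to either side (odds ratio 0.731, adjusted p = 0.111 by the same exact test). It held under others, including the comparison with the 5′-most starts of 1 gene (odds ratio 0.496, adjusted p = 0.00199, same exact test). The shares in the lists of replicates 1, 2 and 3 were 4.40%, 4.63% and 5.80% at downstream starts and 5.75%, 6.62% and 8.53% at 5′-most starts, and their ranges overlap. The shorter core GCCAT was in 19.3% of the downstream windows and 22.3% of the 5′-most windows (adjusted p = 0.218, Fisher's exact test), and the extended word contains the core. In the lists of replicates 2 and 3 the core was rarer at downstream starts (adjusted p = 0.0476 and 0.00338, same exact test), and in replicate 1 the difference missed the threshold (0.517). The core was also rarer in the reproducible list against the 5′-most starts of 1 gene (odds ratio 0.708, adjusted p = 0.00752, same exact test). Peak strength did not separate windows with the extended word, which 13 of the stronger 272 and 12 of the weaker 271 windows held.

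DRE and Motif 1 were scarce in the windows at the downstream summits. TATCGATA was in 5 of 543 windows (0.921%) against 7.01% at 5′-most starts, an odds ratio of 0.123 (0.0507 to 0.300, adjusted p = 9.5e-10, Fisher's exact test). The 5 are CG7741, su(w[a]), Pfrx, Cadps and tkv, and none ranks above 6797 of the 10264 peaks. GGTCACAC was in 4 windows (0.737%) against 4.35%, an odds ratio of 0.163 (0.0603 to 0.441, adjusted p = 1.4e-05, Fisher's exact test). The 4 are lute, CrebB, SNF4Agamma and Nup44A. In the replicate lists the DRE share was 0.917%, 1.11% and 0.543% at downstream starts against 8.04%, 7.53% and 5.15% at 5′-most starts. The Motif 1 share was 0.550%, 0.926% and 0.181% against 5.61%, 4.81% and 2.94%. For both words the replicate values of the promoter classes do not overlap. The windows are centred on summits, which lay a median of -225 bp from downstream starts and -73 bp from 5′-most starts. They therefore cover different positions relative to the start, and the part of this in the word shares was not tested.

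The remaining words did not pass the test at summits of the reproducible list. The word GAGAGAG, one that GAGA factor binds, was in 9 windows (1.66%) against 0.861% (adjusted p = 0.212, Fisher's exact test), with replicate values of 2.94%, 2.04% and 1.09%, of which the lowest is close to the 0.989% at 5′-most starts of the same replicate. It passed in the lists of replicates 1 and 2 (adjusted p = 6.43e-04 and 0.0184, Fisher's exact test) and not in replicate 3 (0.921). TATAAA, the TATA-box word, was in 21.5% against 19.4%, the initiator word TCAGTT in 5.89% against 5.38%, the Combgap word GTGTGTGT in 1.84% against 1.12%, and the Zelda word CAGGTAG in 2 windows (Pfrx and ckn) against 0.335%. Mean GC content was 33.3% ± 10.2 (SD over 543 windows) against 36.0% ± 10.3 (SD over 4180 windows), so the windows compared are not alike in base composition. The part of base composition in the word shares was not tested.

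**Figure D1:**
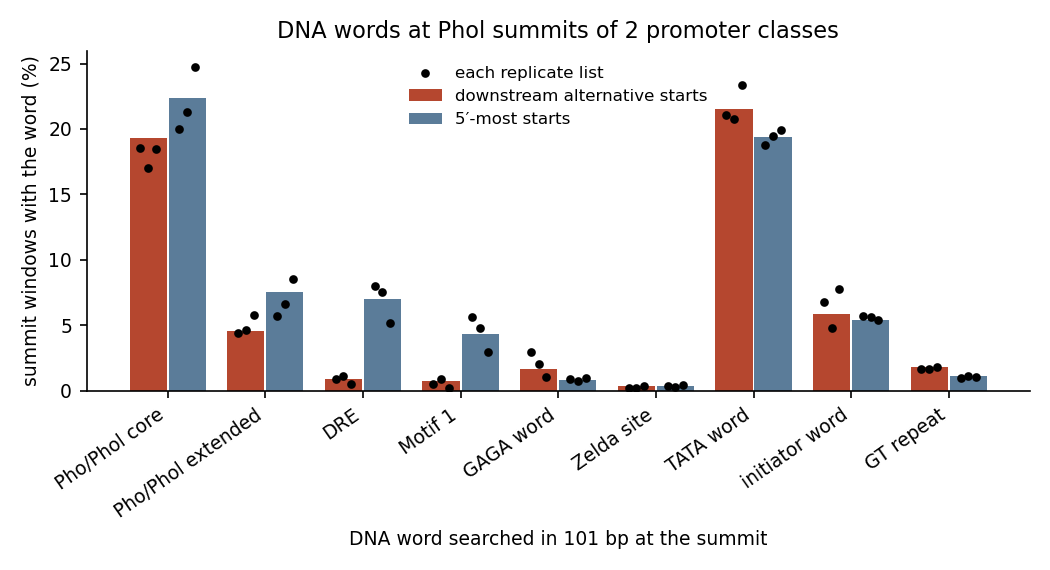
Share of summit windows, 50 bp to either side, that hold each DNA word, with bars for the 543 summits at downstream starts and the 4180 summits at 5′-most starts in the reproducible list, and black points for the same share in the strongest 10264 peaks of each replicate. The DRE and Motif 1 bars stand at 0.921% and 0.737% at downstream starts against 7.01% and 4.35% at 5′-most starts, and the points of the promoter classes do not overlap for either word.

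The same words were then compared within each gene, between windows that reach 150 bp to either side of the bound downstream start and of the gene's own 5′-most start. Motif 1 was at 15 bound starts and 46 of the 5′-most starts of the 447 genes (adjusted p = 7.95e-04, exact McNemar test over 9 words). DRE was at 12 and 27 (adjusted p = 0.0375), GAGAGAG at 91 and 53 (adjusted p = 0.00189) and TATAAA at 96 and 135 (adjusted p = 0.00947), by the same exact test. GCCATNTT was at 21 bound starts and 14 of the 5′-most starts (adjusted p = 0.381, exact McNemar test), GCCAT at 189 and 164 (adjusted p = 0.152, same exact test), and GTGTGTGT at 57 and 38 (adjusted p = 0.0759, same exact test). The last passed without replicate 1 or 2 (adjusted p = 0.0404 and 0.0306, exact McNemar test). Mean GC content was 45.1% at the bound starts and 42.8% at the 5′-most starts of the same genes, the reverse of the order at summits. The part of base composition in these counts was not tested. Among 1846 eligible downstream starts of genes without such a summit, 0.921% held DRE, 0.813% Motif 1, 11.3% GAGAGAG and 4.44% GCCATNTT, against 2.68%, 3.36%, 20.4% and 4.70% of the 447 bound starts. The 1846 starts belong to 1221 genes, so a gene can give several, while the bound starts are 1 per gene.

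For DRE, Motif 1, the GAGA word and GTGTGTGT, these counts lay farther apart in genes with a summit at both starts, though the difference between the sets of genes was not tested. In the 225 genes whose 5′-most start also had a summit, DRE was at 4 bound downstream starts and 23 of the 5′-most starts, Motif 1 at 7 and 35, GAGAGAG at 46 and 15, and GTGTGTGT at 36 and 13. TATAAA was at 50 and 70 there (adjusted p = 0.0717, exact McNemar test). In the 222 genes whose 5′-most start had none, the counts of these 4 words in that order were 8 and 4, 8 and 11, 45 and 38, and 21 and 25, and 0 of 9 words passed the exact McNemar test after adjustment, while 1 of 9, TATAAA, had an unadjusted p under 0.05 (46 against 65 starts). The GAGA word was at 20.4% and 20.3% of the bound downstream starts in these sets of genes, and at 6.67% and 17.1% of their 5′-most starts.

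Summits at downstream starts sat farther upstream than those at outermost starts. The signed distance from the nearest qualifying start had a median of -225 bp (negative is upstream, interquartile range -331 to -84.5 bp), and 460 of 543 summits (84.7%) were upstream. At the 5′-most starts of 1 gene the median was -79 bp (-177 to -6 bp), with 76.3% upstream. The medians in replicates 1, 2 and 3 were -219, -227 and -236.5 bp at downstream starts and -72.5, -82 and -94 bp at 5′-most starts, with no overlap. Between 100 and 400 bp upstream lay 317 of the 543 summits (58.4%) and 969 of the 2479 (39.1%). That is an odds ratio of 2.19 (1.81 to 2.64) with p = 3.5e-16 in a two-sided Fisher's exact test, for an interval chosen after the values were seen. In the 3 replicate lists the odds ratio was 2.31, 2.21 and 2.00. The rule cuts the distances at 500 bp. In the outermost bin, 450 to 500 bp upstream, lay 6.81% of the downstream summits and 1.57% of those at the 5′-most start of 1 gene. The medians hold for that window, and other start windows were not tested for this result. How exactly each kind of start is annotated was not tested.

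**Figure D2:**
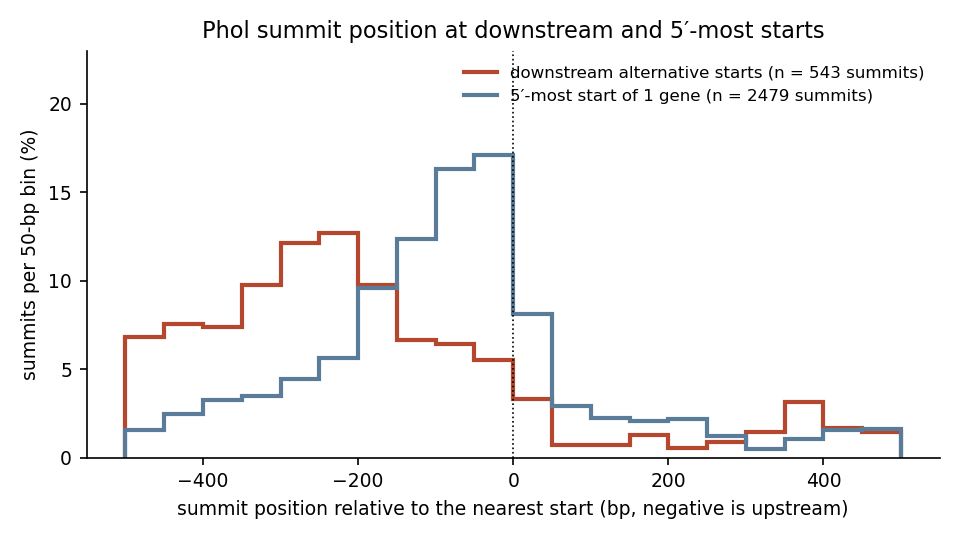
Position of summits relative to the nearest start in bins of 50 bp, as a percent of the 543 summits at downstream starts and of the 2479 summits at the 5′-most start of 1 gene. The downstream curve is highest between 200 and 300 bp upstream, with a median of -225 bp, and the 5′-most curve just upstream of the start, with a median of -79 bp.

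Because the bound starts are internal, most summits lay inside the transcribed unit of the longer transcripts. Of the 543 summits, 472 (86.9%) were in an intron of the gene, 54 in a 5′ UTR, 11 in another exon, 4 in a coding exon and 2 in a 3′ UTR. The 543 summits fall in 528 peak regions, and 30 of them share a region with another. Near a start of a noncoding gene lay 21 summits (3.87%), against 2.57% of the eligible starts without a summit. The nearest 5′-most start of any protein-coding gene was a median of 3310 bp away, and 56 summits had one within 1000 bp.

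An eligible start lies 1 kb or more downstream of the gene's 5′-most start and more than 500 bp from every 5′-most start. Of 1665 protein-coding genes with an eligible start, 444 had a downstream summit (26.7%). The other 3 genes, Alp12, CG13085 and CG33995, have a summit over 500 bp from all 5′-most starts but a bound start that is closer to one. Starts within 100 bp of each other were merged into clusters, and 546 of 2782 eligible clusters were bound (19.6%). A cluster counted as bound here if any eligible start in it lay within 500 bp of a downstream summit. In lists of replicates 1, 2 and 3 the rule gave 545, 540 and 552 summits in 446, 448 and 449 genes, and 367 of the 447 genes came up in all 3. The full lists of all 3 replicates held 534 of the 543 summits (98.3%), within 250 bp. The lists of replicates and the reproducible list share their reads, so these counts describe the spread and are no separate evidence.

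With the start of the strongest summit taken for each of the 447 genes, the bound start was a median of 4112 bp downstream of the 5′-most start (interquartile range 1728 to 12761.5 bp). Occupancy by that distance ran from 16.3% to 25%, and a change with distance was not tested. It was 23.02% of clusters at 1 to 2 kb (148 of 643), 18.8% at 2 to 5 kb, 17.5% at 5 to 10 kb, 18.9% at 10 to 20 kb, 16.3% at 20 to 50 kb and 25% beyond 50 kb (42 of 168, Wilson 95% interval 19.1% to 32.1%). The intervals of neighbouring distances overlap, also that of 20 to 50 kb (12.9% to 20.4%) with the last.

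**Figure D3:**
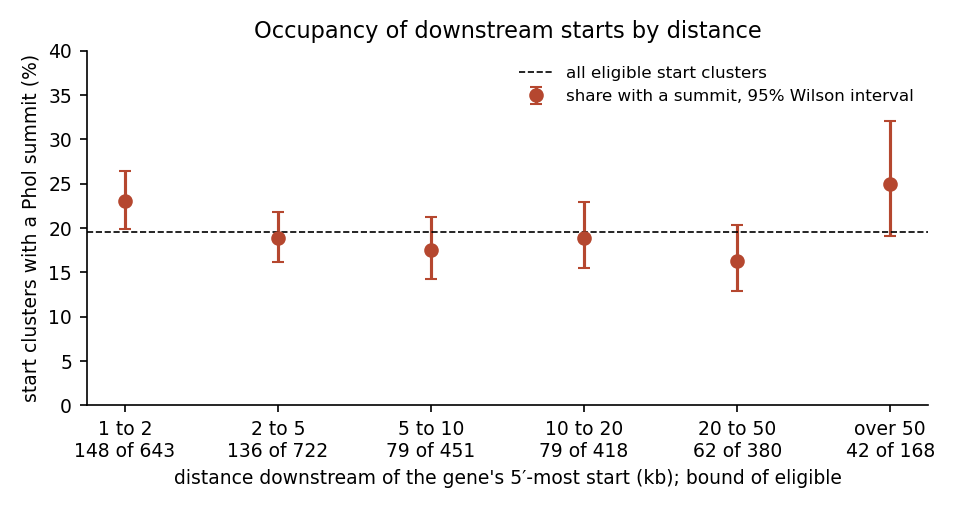
Share of eligible downstream start clusters with a Phol summit, by distance from the gene's 5′-most start in kb, with 95% Wilson intervals and the count of bound clusters under each point. The dashed line marks the 19.6% of all 2782 clusters, and the points run from 16.3% to 25%.

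The farthest bound starts are deep within long genes. Ten-a, a teneurin of synapse formation, was bound 160 kb from its 5′-most start, at the cluster of 4 transcripts, with the summit 2 bp from the start (chrX:12203653-12203884). The next were starts of dnc, the cyclic AMP phosphodiesterase dunce, at 153 kb, of CG32816 at 136 kb, of dnc again at 119 kb and of Svil, a supervillin, at 117 kb. Of these 4 genes, Svil alone also had a summit at its 5′-most start. The peaks at these 5 starts ranked 5301, 4697, 6595, 552 and 1904 of 10264 in that order. Ten-a stood in the strongest 20.3%, 21.9% and 14.1% of the peaks of replicates 1, 2 and 3, and the dnc start at 119 kb in the strongest 1.93%, 1.62% and 2.18%.

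Which of several starts was bound varied. In 144 of the 447 genes there were only 2 start clusters, so the bound one was the second and the last. In the 303 genes with 3 or more, the strongest summit was at the second in 100, in between in 86 and at the last in 117. Over all 447 genes the bound start was the last in 261 (58.4%), and in the replicate lists in 61.0%, 58.3% and 59.0% of genes. The numbering of clusters includes those too close to the gene's 5′-most start for the rule to count. Such a cluster could not be called bound, so the counts by position can partly follow from the rule. Shares of eligible clusters by position are not given, so these counts show no preference for a position. The number of annotated transcripts at the bound start was larger than at the 5′-most start in 114 genes, equal in 175 and smaller in 158. Clusters with 2 or more transcripts were 39.0% of the bound (213 of 546) and 30.5% of the unbound (681 of 2236) clusters. The bound start shared a start codon with the 5′-most start in 233 of 447 genes (52.1%), against 44.9% of 2296 eligible starts without a summit, so in 52.1% of the genes the bound start has a transcript that begins translation where one from the 5′-most start does.

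For the counts per gene, each summit was given only to the nearest start of the gene, unlike in the cluster shares above. Single starts were then the rule, with 389 genes bound at 1 downstream cluster, 47 at 2, 7 at 3 and 4 at 4. Rtnl1, a reticulon that shapes the endoplasmic reticulum, was bound at 4 of its 7 clusters, 4.79, 9.35, 10.2 and 12.3 kb from the 5′-most start, with 5 summits of ranks 1048, 1687, 2588, 2692 and 123. Its 5′-most start was bound too, at rank 1978, below the farthest of these. In dnc, 4 of 9 clusters were bound, 79.6, 113, 119 and 153 kb downstream, at ranks 460, 5054, 552 and 4697, and the 5′-most start was not. All 4 dnc summits were 284 to 390 bp upstream of their starts. Ptpmeg2, a protein tyrosine phosphatase, was bound at 4 of 6 clusters, of which 3 ranked 588, 625 and 735. Svil was bound at 4 of 16 clusters spread from 34.4 to 117 kb. Tm1, the actin-binding protein tropomyosin, was bound at 3 of 6 clusters, with 5 summits the most among the 7 genes tied at 3 clusters.

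Genes bound downstream were often bound at the outermost start as well. The 5′-most start had its own summit in 225 of 447 genes (50.3%, Wilson 95% interval 45.7% to 54.9%), against 491 of 1221 eligible genes without a downstream summit (40.2%, 37.5% to 43.0%) and 5363 of 13945 protein-coding genes (38.5%). In replicates 1, 2 and 3 the share was 52.9%, 51.3% and 45.4%, against 41.8%, 42.2% and 36.3% for the eligible others, so it was higher in each replicate and the ranges do not overlap. Of the 222 genes with no such summit, 109 had a weaker pooled peak at the 5′-most start and 113 had none in the pooled list. Where both were bound, the downstream summit ranked higher in 129 genes and the 5′-most summit in 96. Over all summits, the median rank was 4697 for the downstream summits, 4534.5 for the 5′-most summits and 5659 for the rest.

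Among the strongest 2566 reproducible peaks were 183 of the 543 downstream summits (33.7%) and 30.05% of the 5′-most summits. The odds ratio was 1.18 (0.979 to 1.43) with p = 0.0830 in a two-sided Fisher's exact test, and it was 1.06, 1.05 and 1.14 in the replicate lists. Against summits near the 5′-most start of 1 gene only, the odds ratio was 1.45 (p = 2.97e-04, Fisher's exact test), and the call also appeared without replicate 3 (odds ratio 1.27, p = 0.0228, same exact test). Of the strongest 100, 500 and 1000 reproducible peaks, 3, 36 and 91 were at downstream starts.

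The strongest downstream summit was that of px (plexus), a nuclear protein that limits wing vein formation. It ranked 29 of 10264 and stood in the strongest 0.0867%, 0.0967% and 0.140% of the peaks of replicates 1, 2 and 3 (chr2R:22514059-22514521, dm6, in an intron of the gene). Its start is 48.0 kb downstream, the last of 3, and the 5′-most start had no reproducible summit. The next was ph-p, one of a tandem pair of polyhomeotic genes for a subunit of Polycomb repressive complex 1, of rank 35 and in the strongest 0.100%, 0.110% and 0.110% (chrX:2137090-2137598, intron). Its bound start is 1.52 kb downstream with the summit 463 bp before it, and the 5′-most start was bound at rank 107. The neighbouring copy ph-d was also bound at a downstream start, 1.49 kb along and at rank 4290, and at its 5′-most start at rank 5029. These copies are similar in sequence, so reads could be shared between them, which was not tested. CG1888, of rank 64, was the only other in the strongest 100, at 0.233%, 0.247% and 0.157% (chr2R:9546973-9547754, 5′ UTR).

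After the strongest 3 came velo, Rtnl1, gish and for, at ranks 117 to 126. The SUMO protease gene velo (rank 117) held GCCATNTT and lay at 0.307%, 0.377% and 0.530% in replicates 1, 2 and 3. The casein kinase gene gish (125), at 0.290%, 0.463% and 0.523%, was bound at a start of 5 transcripts 8.44 kb downstream and not at its 5′-most start. The cyclic GMP-dependent kinase gene for (126), known for foraging behaviour, was bound at the last of 4 clusters, 24.8 kb downstream, where 7 transcripts begin, at 0.350%, 0.383% and 0.623%. The 3 replicates put these peaks close together, replicate 3 a little lower.

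Among the 20 strongest, ranks ran on to 342. Rtnl1 (123), the translation regulator larp (186), RapGAP1 (188), which acts on the small GTPase Rap1, CG44838 (190), the formin Fhos (233), the tyrosine kinase Btk (246), the HMG-box gene bbx (281) and the EGF receptor ligand spi (287) came first. They were followed by the acyl-CoA synthetase pdgy (304), Gdap2 (306), Drat (307), CG8036 (310), the bromodomain protein fs(1)h (333) and the glycolytic regulator Pfrx (342). The 5′-most start had no summit in 10 of these 20 genes and a summit in the other 10. Of the 20 summits, 19 were upstream of the start, the exception being Pfrx at 355 bp downstream. No replicate put any of them below the strongest 1.60%, and 2, velo and fs(1)h, held the extended Pho and Phol word.

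**Figure D4:**
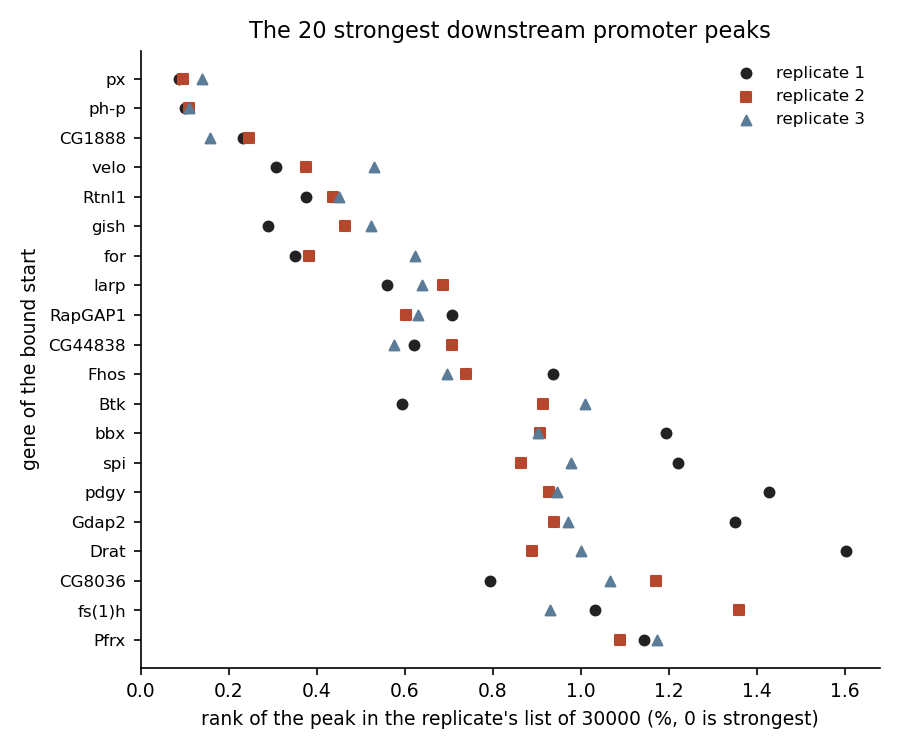
Rank of the 20 strongest downstream promoter peaks in the list of each replicate, as a percent of its 30000 peaks, where 0 is the strongest, with 1 marker per replicate. All 60 markers lie at or under 1.60%, px and ph-p stay at or under 0.140%, and Drat has the widest spread, from 0.890% to 1.60%.

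The gene classes were described by 14 lists, each count to be read against the 26.7% of all eligible genes. The lists are partial, so a class can hold bound genes that its list lacks. The kinase gene for, the phosphatase gene Ptpmeg2, the enzyme genes pdgy and Pfrx and the translation regulator larp, all named above, are in no list. A gene said to lead a list is the strongest within that list only. Genes with more start clusters have more chances to be counted, and the genes with a downstream summit had a median of 3 clusters and 15.3 kb of length, against 2 clusters and 11.4 kb for eligible genes without one. Of the 447 genes, 92 were in at least 1 list. No list was tested, and with 2 to 38 eligible genes each, most Wilson intervals are wide.

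Of 3 lists of chromatin and transcription regulators, each had a share above the background. The intervals of the second and the third include the background, and that of the first begins close above it. With 14 lists, chosen with earlier results of these data known, no interval of any list serves as a test against the background. Of 16 eligible Polycomb and trithorax group genes, 8 were bound (50%, interval 28.0% to 72.0%, and 9, 7 and 8 genes in replicates 1, 2 and 3), namely ph-p, fs(1)h, lolal, Trl, ph-d, Set1, Utx and jing. Of 12 BTB zinc-finger and related regulators, 6 were bound (50%, 25.4% to 74.6%), led by lola (rank 870), lolal (rank 1215) and Trl (1534), which encodes GAGA factor. The genes lolal and Trl are in both lists. In 5 of those 6 BTB genes the 5′-most start had no summit. Of 12 nuclear receptors and ecdysone-induced regulators, 5 were bound (41.7%, 19.3% to 68.0%), among them Eip75B (467), Hnf4 (662) and the ecdysone receptor EcR (5463), at starts 64.9, 18.4 and 12.0 kb downstream.

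Homeobox genes and other patterning regulators were not among the frequent classes. Of 19 eligible homeobox genes 2 were bound (10.5%, interval 2.94% to 31.4%), the Hox genes Antp and Abd-B, at ranks 6071 and 7122. In Antp the bound start is the last of 3, 66.4 kb downstream, where 6 transcripts begin, and it lay at 26.2%, 20.9% and 17.5% in replicates 1, 2 and 3. In Abd-B it is the fourth of 6, 12.0 kb downstream. Neither had a summit at its 5′-most start. Of 34 other developmental transcription factors 8 were bound (23.5%), led by trh, a regulator of the tracheal system (650), bun (1489) and Mnt (3292). Of 25 listed RNA-binding and splicing regulators 5 were bound (20%), led within the list by mbl, the splicing factor muscleblind (1084), Imp (1143) and orb2 (2735). In msi, a member of that list, the 5′-most start ranked 100 and the downstream start 8690.

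The listed signalling and metabolic genes lay above the background share, with intervals that begin close to it. Of 38 listed kinases and phosphatases 15 were bound (39.5%, interval 25.6% to 55.3%), led within the list by gish, Btk and Src64B (646). The 5′-most start also had a summit in 7 of these 15 genes, though not in those 3. Of 21 small GTPases and regulators 10 were bound (47.6%, 28.3% to 67.6%, and 10 in each replicate), led by RapGAP1, Rgl (437) and pbl (935), an exchange factor needed for cytokinesis. Of 25 listed metabolic enzymes and transporters 11 were bound (44.0%, 26.7% to 62.9%). They were led within the list by Lpin (546), the enolase gene Eno (862) and Pgk (1468), which encodes phosphoglycerate kinase. In 7 of these 11 the 5′-most start was bound too, and it ranked lower than the downstream start in Lpin, Eno, Pgk and kdn (at 5244, 8610, 8991 and 10192) and higher in PyK, Men and Desat1 (at 5476, 2792 and 9340).

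The other lists were near or below the background, apart from the small circadian and neuropeptide list, which was above it with a wide interval. Of 33 cytoskeleton and motor genes 9 were bound (27.3%), led by Fhos, CAP (1037) and Tm1 (1134). Of 36 ion channel and synaptic genes 9 were bound (25%), led by dnc, the sodium pump gene Atpalpha (924) and Trpm (1221). Of 25 listed adhesion and guidance genes 4 were bound (16.0%), unc-5 (1115), Sema2a (4473), Ten-a (5301) and if (9103). Of 6 circadian and neuropeptide genes 2 were bound (33.3%, interval 9.68% to 70.0%), the clock regulators Pdp1 (946) and vri (1132). Only 2 ribosomal protein genes of 166 matched had an eligible start, and 0 of these 2 was bound. Of the 447 genes 22.6% have a CG number in place of a name, against 28.3% of the eligible genes without a downstream summit.

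**Figure D5:**
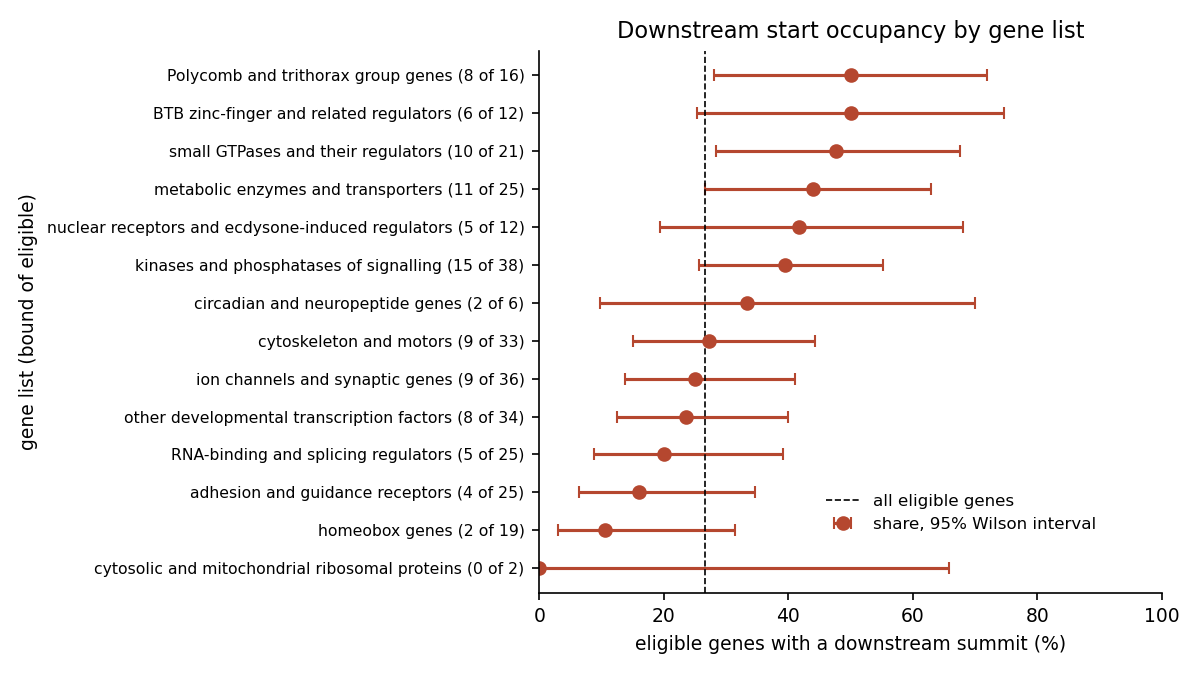
Share of the eligible genes of each list with a Phol summit at a downstream start, with 95% Wilson intervals and the counts beside each name. The dashed line marks the 26.7% of all 1665 eligible genes, and the shares run from 0 of 2 ribosomal protein genes and 10.5% of homeobox genes to 50% of Polycomb and trithorax group genes.

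Chromosome X held the largest number of the summits, 132, against 109 on 3R, 105 on 2R, 102 on 3L, 87 on 2L and 8 on 4. Of eligible start clusters on X, 23.8% were bound (Wilson 95% interval 20.6% to 27.5%), against 17.1% to 20.5% on the other arms, and the intervals of X and of the other arms overlap except with 2R (14.4% to 20.4%). The rule's limits fall between similar genes. ERR, with a start 1001 bp downstream, was in and Not1, at 997 bp and rank 114, was out. A CG7694 summit 499 bp from its start was in, and one of east just past the 500 bp limit was out. A summit of apolpp 510 bp from a 5′-most start was in, while that of CG1902 at 462 bp was out, 1 of 87 summits near both kinds of start.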

How the data were processed

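Per the readme deposited with the samples, each replicate had its peaks called against a control alignment, as did the pooled replicates, and the reproducible list is the pooled list thresholded on the irreproducible discovery rate. The sources used here name no aligner, caller or threshold, and the control was not analysed here. The deposited signal value is the peak caller's own, with no stated scale, and only ranks peaks within a list. The deposited −log10 q-value was 4.35 for all reproducible peaks and was not used. Read depth is unknown.

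Summits were placed on the release 6 genome with Ensembl release 115 (1-based). Peaks were shared when summits lay within 250 bp, replicate shares use the strongest 10264 peaks, and a percentile is the rank among 30000. Words were searched on both strands. Fisher's exact and exact McNemar tests (two-sided, Benjamini-Hochberg over 9 words, scipy 1.17.1) treat regions and genes as independent and, like the intervals, cover counting error only. Nothing says whether the replicates were separate collections. The members and lists were chosen with earlier results of these data known. List symbols were written from memory, and 6 had no match. Genes named are the strongest 20, the strongest 3 of each list, the 5 farthest bound starts, the 5 genes with most bound clusters (ties by summits, then rank), and members of short counts. Others, such as ph-d and msi, were chosen after their values were seen. Scripts were tested on simulated data.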

Additional observations from a re-analysis of the deposited data

How the results depend on the processing

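Of the alternatives, restricting to starts of coding transcripts gave 543 summits again. The rule gave 274 with a start window of 250 bp, and the strongest 5132 peaks held 296. The share of eligible genes bound was 14.8% at 250 bp, 31.6% at 1000 bp, 25.2% and 25.7% with starts 500 bp or 2 kb downstream, 15.6% in the strongest 5132 and 23.3% to 24.0% leaving out a replicate. The 5′-most start was also bound in 41.9%, 62.4%, 45.9% (2 kb), 30.7% (same settings) and 41.9% to 47.6% leaving out a replicate. The matching share of eligible genes without a downstream summit is not given for these settings. These values therefore cannot be set against that share in the main list.

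The GCCATNTT odds ratio was 0.556 at 250 bp, 0.713 at 1000 bp, 0.703 for starts 500 bp downstream, 0.536 and 0.731 in windows 25 and 100 bp to either side, each past 0.05 after adjustment by Fisher's exact test. The word passed with starts 2 kb downstream (0.547), in the strongest 5132 (0.449), against single-gene starts (0.496) and leaving out a replicate (0.485 to 0.557). In the narrower windows 1 word passed in place of 3, since Motif 1 did not (0.274). GAGAGAG passed in the wider windows (2.75) and with a start window of 250 bp (3.47). GCCAT passed in the strongest 5132 (0.560), without replicate 1 (0.701) or 2 (0.737), in the wider windows (0.781) and against single-gene starts (0.708). It did not pass at 1000 bp (0.856), with starts 500 bp (0.900) or 2 kb (0.820) downstream, without replicate 3 (0.783) or in the narrower windows (0.938).

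Within genes 2 words passed in windows 100 bp to either side and 0 in genes with no 5′-most summit, where the ratios of DRE (2.00) and GTGTGTGT (0.810) turned. GTGTGTGT passed without replicate 1 (1.80) or 2 (1.84) but turned in windows 250 bp to either side (0.966) and CAGGTAG in those of 100 bp (1.67). At summits GCCAT turned at 250 bp (1.08), TCAGTT in the strongest 5132 (0.972), and CAGGTAG, found in 2 windows, in 8 settings (0.833, 0.952, 0.415, 0.962, 0.720, and 0.272 to 0.621 leaving out a replicate). No value that turned passed the test.

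The odds ratio for the strongest 25% of whichever list was used was 1.48 for the list of 5132, 1.45 against single-gene starts and 1.16 to 1.27 leaving out a replicate. It passed in the first 2 and without replicate 3. In the strongest 5132 the last start was bound in 51.3% and the median offset was -245.5 bp, and it ran from -237.5 to -231.5 bp leaving out a replicate. The causes were not tested. No paired analysis was possible because there is 1 group of samples. Replicates limit the spread to 3 values, and the unknown depth limits what the lack of a summit shows.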
